A study of Rattus norvegicus with 6 samples.

Results

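The antioxidant, glutathione and metallothionein genes described here are 38 genes, and 37 of them were carried under the name given by an array of 26456 gene names. The 38 names comprise the NRF2 regulator pair with its first-line targets, superoxide dismutases, enzymes that remove peroxides, enzymes of glutathione synthesis, glutathione transferases, thioredoxin and glutaredoxin genes, and 1 metallothionein. They were chosen by name and not by a threshold on these values, but with earlier results of these data known. All 37 were well above background on all 6 arrays, so all were among the 18816 genes tested. Glrx, which encodes a glutaredoxin, was carried under its older name Glrx1 and is given beside the others. Of the 37 members, 35 had 1 probe and 2, Gpx4 and Txnrd1, had 2 probes.

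Left ventricular transcripts of male rats were measured on 1-colour Agilent Rat GE 4x44K v3 arrays, with each rat on its own array. The inbred OLETF strain becomes obese and diabetic, and the labels give its 3 rats as having type 2 diabetes. LETO is its non-diabetic counterpart, and the labels give its 3 rats as healthy controls. OLETF 1 and OLETF 3 were 27 weeks old and OLETF 2 was 28 weeks old, and LETO 1 was 27 weeks old and LETO 2 and LETO 3 were 28 weeks old. The labels name no transgene or treatment in either strain. OLETF rats lack a working cholecystokinin receptor gene and differ from LETO rats at many other loci, so diabetes and strain background cannot be told apart. The labels speak of independent experiments for both strains, and the p-values measure the spread between these 6 rats.

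Oxidants are produced in heart muscle mainly by the mitochondria. Superoxide dismutases convert superoxide to hydrogen peroxide, which catalase, glutathione peroxidases and peroxiredoxins remove. The glutathione peroxidases and peroxiredoxins, but not catalase, do so at the expense of glutathione or thioredoxin. The transcription factor NRF2, held in the cytoplasm by KEAP1, raises many of these genes when thiols are oxidised. Metallothioneins are small cysteine-rich proteins that bind zinc and copper, and the zinc-sensing factor MTF1 switches on their genes through metal response elements.

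Values are log2 of the spot signal over the 75th percentile of the same array, so that a value of 1 more means 2-fold more signal of that probe. They compare rats for the same probe and not one gene with another. Differences are OLETF minus LETO with the standard error of the limma fit, and a gene was called at a Benjamini-Hochberg adjusted p below 0.05 over all 18816 genes. Each array held 42877 spots for 30367 probes, between 75.5% and 79.8% of the spots were well above background, and no spot was saturated. OLETF 1 and all 3 LETO arrays lay on 1 slide, while OLETF 2 and OLETF 3 came from a second slide, so the strain contrast is in part a slide contrast. LETO 1 stood apart from the rest along the second principal component and had the lowest array quality weight, 0.206, whereas the other 5 weights lay between 0.736 and 2.94. All 12 cardiomyocyte markers were tested and none was called, although all 12 differences were negative (median −0.11, beside −0.0087 over all genes), and their summed signal lay between 2974 and 3587 times the 75th percentile in OLETF and between 3222 and 3571 times in LETO. In tissue RNA, fewer cells of a type and less RNA per cell cannot be told apart.

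Of the 37 members, Mt1a rose and Gstm2 fell in OLETF, and the other 35 did not pass. The called share was 5.41%, beside 2.55% of all genes tested (480 of 18816), with 1.5% of all genes called higher and 1.05% called lower. An unadjusted p below 0.05 was reached by 7 of 37 members, and by 12.4% of all genes. Differences were positive for 18 members and negative for 19, and their median was −0.0043, beside −0.0087 over all genes. The lowest OLETF value lay above the highest LETO value for 4 members, Mt1a, Gss, Glrx2 and Prdx2 (10.8%, beside 8.89% of all genes). The highest OLETF value lay below the lowest LETO value for 4 others, Gstm2, Gsr, Srxn1 and Cat (10.8%, beside 8.45% of all genes). For 26 of the 37 members the 95% interval lay within a 1.5-fold difference either way, as it did for 77.3% of all genes, so that larger differences of those 26 lie outside their intervals. The intervals of the 11 other members, which are Mt1a, Gstm2, Gsr, Srxn1, Gstt1, Mgst1, Sod3, Gpx3, Gclc, Txn2 and Hmox1, reached past that limit.

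**Figure D1:**
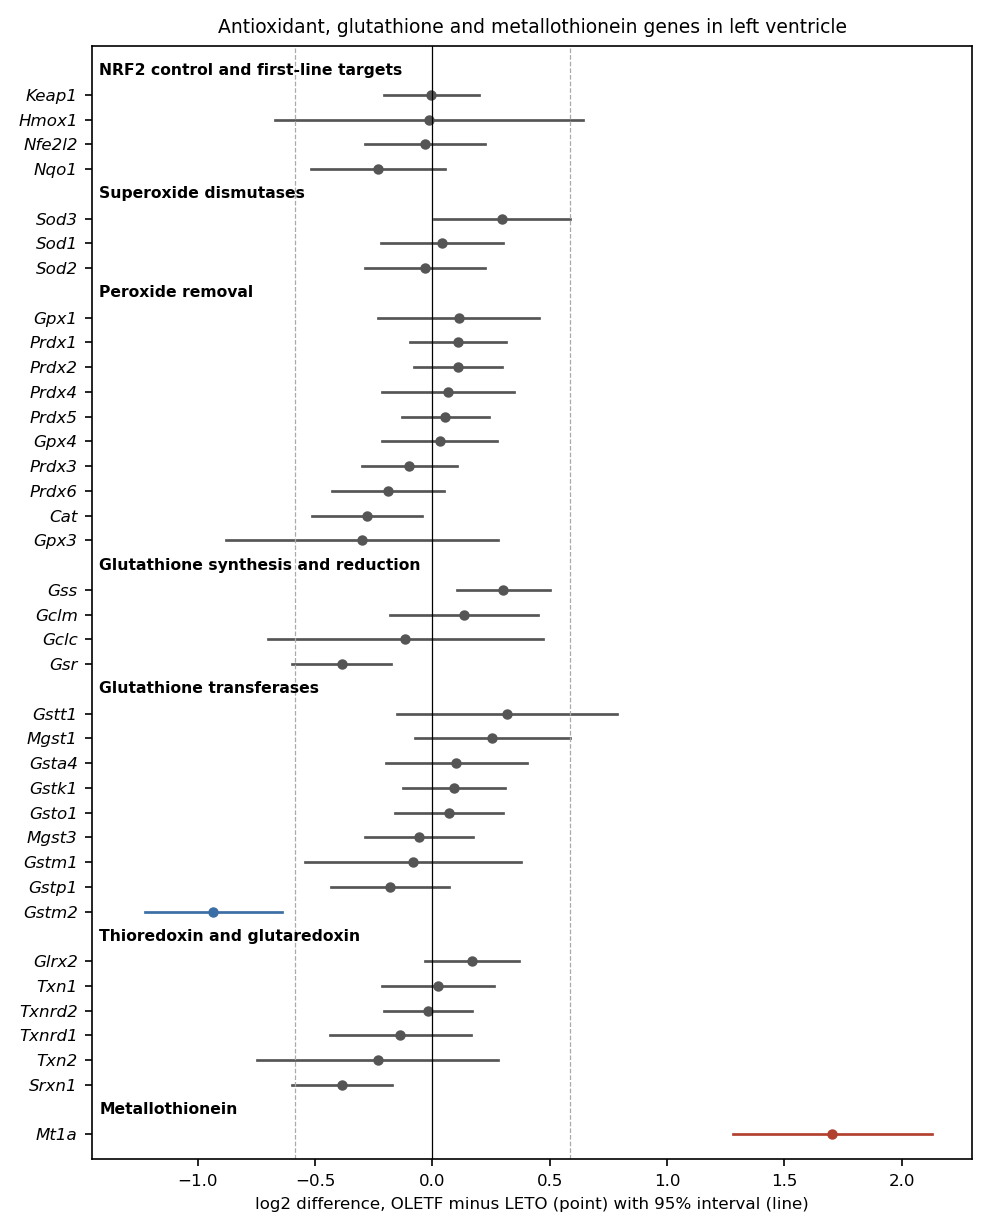
Log2 difference, OLETF minus LETO, of the 37 members by role group, with points for the estimate and lines for the 95% interval (3 rats of each strain). Dashed lines mark a 1.5-fold difference, red marks the gene called higher in OLETF (Mt1a, 1.70) and blue the gene called lower (Gstm2, −0.93), and the other 35 intervals are grey.

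Mt1a, which encodes metallothionein 1, a zinc and copper store and thiol antioxidant, was 3.26-fold higher in OLETF. Its probe lies at 11261631 to 11261690 on the minus strand of chromosome 19 in the rn4 build of the files. The values were 5.50, 5.29 and 5.01 in OLETF 1 to 3, against 3.89, 3.41 and 3.39 in LETO 1 to 3. Every OLETF rat lay above every LETO rat, by more than the spread within either strain. The means were 5.27 ± 0.25 in OLETF and 3.56 ± 0.28 in LETO (SD, n = 3 each). The difference was 1.70 ± 0.18 (SE, limma adjusted p = 0.00494), with a 95% interval of 2.43-fold to 4.37-fold. With slide as a block it was 1.94 (limma adjusted p = 0.0393). The same value from the first slide alone, where OLETF 1 stands against the 3 LETO rats and is assumed to vary as they do, did not pass (limma adjusted p = 0.127).

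The files hold a second probe described as metallothionein 1, which they place at 55288646 to 55288705 on chromosome X in rn4. It had 3.47, 3.34 and 3.09 in OLETF 1 to 3, against 2.52, 2.25 and 2.23 in LETO 1 to 3. The groups were again apart, and the difference of 0.97 ± 0.13 passed (SE, limma adjusted p = 0.0127). With slide as a block this probe gave 1.14 and did not pass (limma adjusted p = 0.084), and its call was also lost without LETO 2 (0.93, adjusted p = 0.0529) or without OLETF 2 (0.95, adjusted p = 0.0718). Metallothionein transcripts are closely related, and which of them each probe reads was not tested.

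The other metallothioneins on the array were not members and came from a list of metallothionein and zinc-handling genes, of which 11 of 14 were tested and none was called. In that list 7 genes had positive and 4 negative differences, with a median of 0.039. Mt2A, which encodes the other broadly expressed metallothionein, had 2.91, 2.75 and 2.35 in OLETF 1 to 3, against 2.01, 1.12 and 0.94 in LETO 1 to 3. All OLETF values lay above the LETO values, LETO 1 was the nearest to them, and the difference of 1.31 ± 0.29 did not pass (SE, limma adjusted p = 0.0745). Without LETO 1 it was 1.64 and passed (limma adjusted p = 0.014). A second Mt2A probe, read from 10 spots per array, had 3.09, 2.81 and 2.22 in OLETF 1 to 3, against 2.33, 0.94 and 0.24 in LETO 1 to 3, and here OLETF 3 lay below LETO 1. Mt3, a metallothionein best known from brain, differed by 0.53 ± 0.12 (SE, limma adjusted p = 0.0781) with no overlap between the strains. Mt3 passed with normexp background correction (limma adjusted p = 0.0482), with eBayes trend and robust (limma adjusted p = 0.0447) and with array weights (limma adjusted p = 0.008). Mtf1, the gene of the zinc-sensing factor, differed by 0.06 ± 0.09, and Slc30a1, which encodes a zinc exporter that is also a known MTF1 target, by −0.30 ± 0.13 (SE, limma adjusted p of 0.918 and 0.402). Mtf1 and Slc30a1 were chosen for their known roles after their values were seen.

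The bases before the start of Mt1 (the current name of Mt1a), Mt2A, Mt3 and Slc30a1 are shown because MTF1 acts through metal response elements. These genes gave unlike differences, and whether MTF1 regulates each of them in this tissue was not tested. They are the 250 bases before the RefSeq start in the GRCr8 build, 5′ to 3′ on the strand of the gene, and capitals mark the metal response element cores TGCACNC and TGCGCNC found on either strand. The windows are chr19:10832976-10833225 (minus strand) for Mt1, chr19:10838709-10838958 (minus strand) for Mt2A, chr19:10856081-10856330 (minus strand) for Mt3 and chr13:106021769-106022018 (plus strand) for Slc30a1.
Mt1: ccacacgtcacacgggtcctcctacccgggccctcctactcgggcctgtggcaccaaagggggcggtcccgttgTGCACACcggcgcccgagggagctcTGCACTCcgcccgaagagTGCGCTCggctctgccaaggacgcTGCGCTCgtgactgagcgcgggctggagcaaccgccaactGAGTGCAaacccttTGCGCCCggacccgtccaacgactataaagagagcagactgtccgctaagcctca
Mt2A: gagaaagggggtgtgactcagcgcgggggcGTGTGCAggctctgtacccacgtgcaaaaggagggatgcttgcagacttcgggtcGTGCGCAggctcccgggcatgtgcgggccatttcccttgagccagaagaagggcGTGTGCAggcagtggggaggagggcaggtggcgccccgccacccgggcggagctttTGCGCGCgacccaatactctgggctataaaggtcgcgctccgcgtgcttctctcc
Mt3: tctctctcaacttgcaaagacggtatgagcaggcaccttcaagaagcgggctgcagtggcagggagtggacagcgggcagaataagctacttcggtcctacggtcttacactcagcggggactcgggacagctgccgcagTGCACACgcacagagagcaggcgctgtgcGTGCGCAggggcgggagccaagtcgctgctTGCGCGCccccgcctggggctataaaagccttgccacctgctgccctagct
Slc30a1: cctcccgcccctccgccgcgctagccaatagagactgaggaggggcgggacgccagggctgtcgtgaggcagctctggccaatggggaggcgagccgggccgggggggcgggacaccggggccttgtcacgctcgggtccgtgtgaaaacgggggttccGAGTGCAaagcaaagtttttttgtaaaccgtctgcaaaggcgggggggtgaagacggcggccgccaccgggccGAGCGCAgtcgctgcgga
Mt1 held 6 of these cores, Mt2A 4, Mt3 3 and Slc30a1 2, and no core overlapped another. At least 1 core was present in 20.6% of the 33469 RefSeq windows of this length, at least 3 in 1.17%, at least 4 in 0.266% and at least 6 in 0.0269%, or 9 windows. The core of the antioxidant response element through which NRF2 acts, TGACNNNGC on either strand, occurred once each in Mt1, Mt2A and Slc30a1 and not in Mt3, without overlap with a metal response core, and in 10.1% of all windows. A window was found for 33 of the 38 members, and some members had several windows. Of these members 6 held an antioxidant response core in at least 1 window, a count by gene, whereas the 10.1% is by window. Among them 2 members, Mt1 and Gsta4, held 3 or more metal response cores. These matches describe letters only, and occupancy was not measured. Any link between the number of cores and the differences was not tested.

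**Figure D2:**
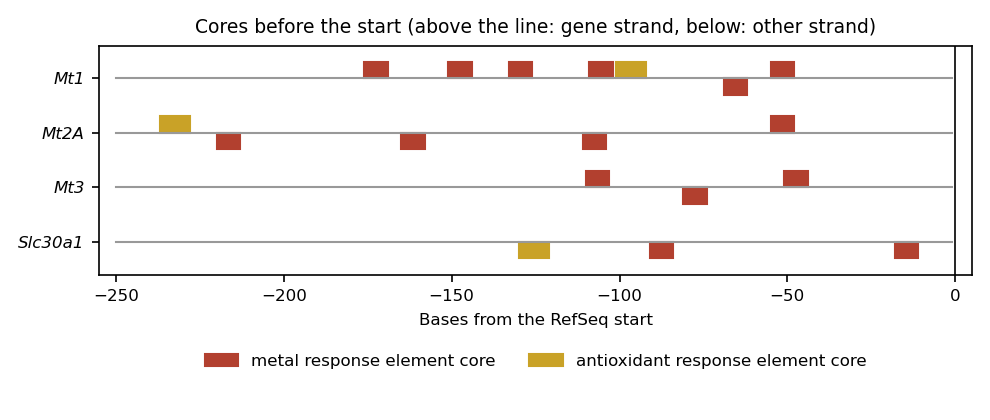
Positions of metal response element cores (red) and antioxidant response element cores (yellow) in the 250 bases before the RefSeq start of 4 genes, in bases from the start, with boxes above the line on the strand of the gene and below it on the other strand. Mt1 has 6 metal response cores, Mt2A 4, Mt3 3 and Slc30a1 2.

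**Figure D3:**
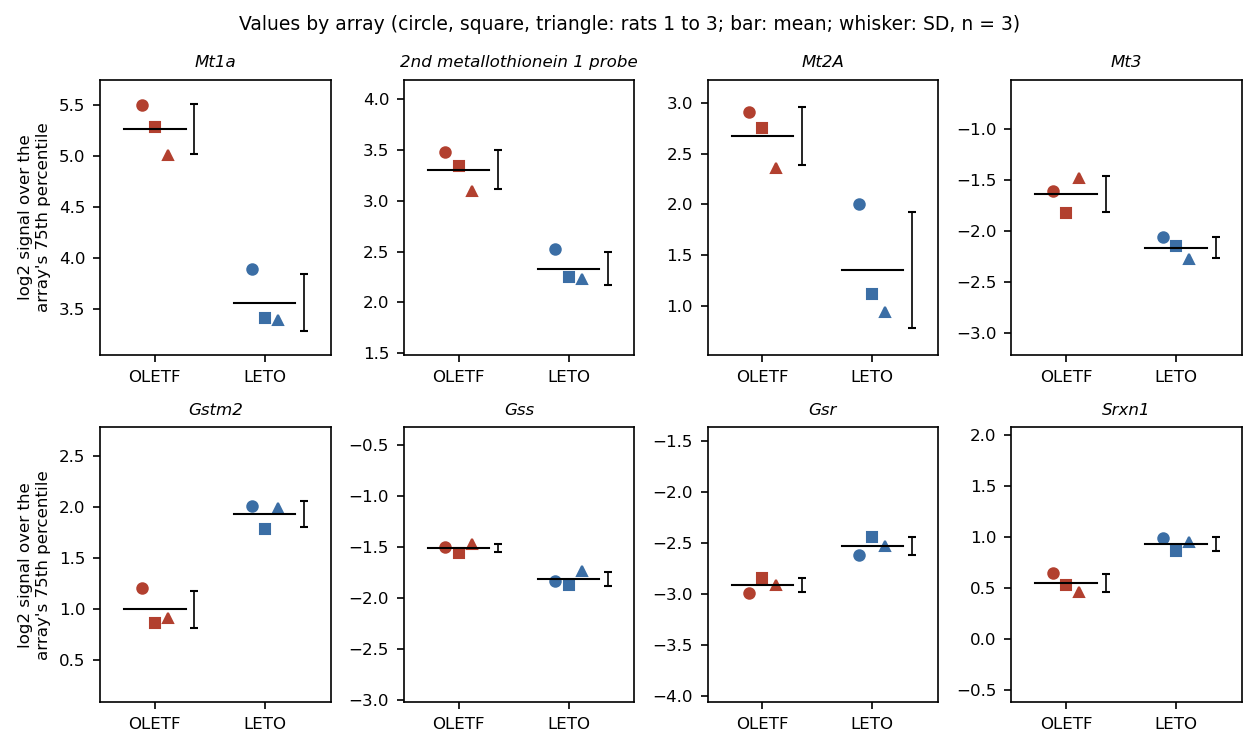
Values on each array for metallothionein probes and for Gstm2, Gss, Gsr and Srxn1, as log2 of signal over the 75th percentile of the array, with OLETF in red and LETO in blue, symbols for rats 1 to 3, bars for means and whiskers for the SD (n = 3). The strains do not overlap in any panel, and LETO 1 is the nearest LETO rat to OLETF in the panels of Mt1a (3.89) and Mt2A (2.01).

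Glutathione transferases join glutathione to electrophiles such as the products of lipid peroxidation. Of 9 members of this group 1 was called, lower in OLETF, 5 had positive and 4 negative differences, and the median was 0.070. The called gene was Gstm2, which encodes a cytosolic mu class enzyme abundant in muscle and heart. It had 1.21, 0.87 and 0.92 in OLETF 1 to 3, against 2.02, 1.79 and 2.00 in LETO 1 to 3. No OLETF rat reached the lowest LETO rat, and OLETF 1 was the nearest to it. The difference was −0.93 ± 0.12 (SE, limma adjusted p = 0.0108), which is 1.91-fold lower in OLETF. With slide as a block it was −0.72 and did not pass (limma adjusted p = 0.169). The call was also lost without OLETF 2 (−0.87, limma adjusted p = 0.0581) or without OLETF 3 (−0.89, limma adjusted p = 0.0669), the 2 arrays of the second slide.

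The Gstm2 probe is shown because mu class genes are near relatives and the call rests on this 1 probe. It lies on the minus strand of chromosome 2 and its 60 bases span 926 bases of rn4 (chr2:203551176-203552101), so that it crosses an intron. How well it separates Gstm2 from the other mu class transcripts was not tested.
Gstm2 probe: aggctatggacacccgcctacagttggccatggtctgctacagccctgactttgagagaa
The 250 bases before the RefSeq start of Gstm2 held 0 antioxidant response cores and 0 metal response cores.

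The probes of 8 mu class genes lie within 149 kb of chromosome 2 in rn4, and Gstm2 was called in OLETF while its neighbours on either side were not. Gstm1, a member and the next gene on one side, had 0.09, 0.38 and 0.18 in OLETF 1 to 3, against 0.72, −0.04 and 0.22 in LETO 1 to 3. These values overlap, and the difference was −0.08 ± 0.19 (SE, limma adjusted p = 0.953). Gstm3, the next gene on the other side, differed by −0.10 ± 0.12 and Gstm4 by −0.04 ± 0.09 (SE), both chosen for their position after their values were seen. Whether the difference of Gstm2 departs from those of its neighbours was not tested. Gstm6 differed by −1.04 ± 0.21, with the strains apart and an adjusted p just above the threshold (SE, limma adjusted p = 0.0544). It was dim, and its probe was well above background on 2 of 3 OLETF arrays and on all 3 LETO arrays.

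**Figure D4:**
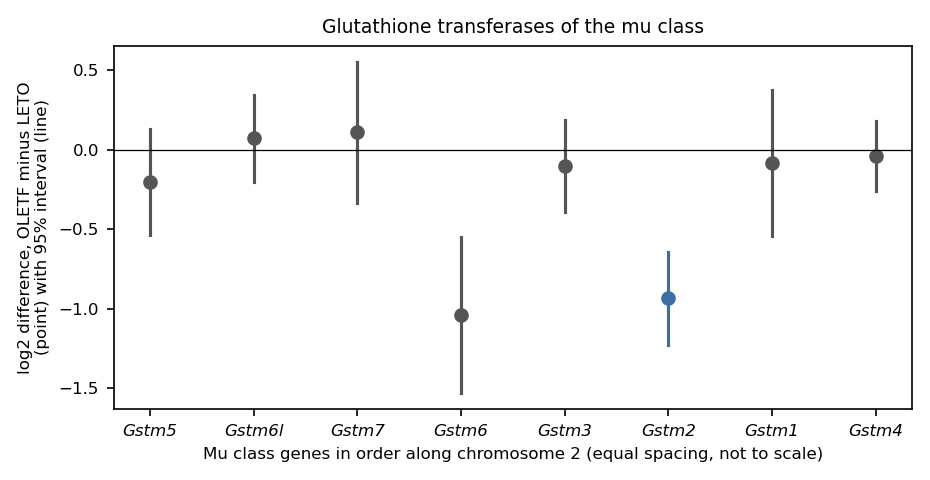
Log2 difference, OLETF minus LETO, of 8 mu class glutathione transferase genes in their order along chromosome 2 (equal spacing), with points for the estimate and lines for the 95% interval (3 rats of each strain). Gstm2 (blue) is the called gene at −0.93, Gstm6 is at −1.04 without passing, and the intervals of the other 6 genes include 0.

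The wider list of glutathione transferases had 17 of 19 genes tested and none called, with 5 positive and 12 negative differences and a median of −0.15. By the lowest p its first 2 genes were Gstm6 and Gsta3. Gsta3, an alpha class gene, had 1.03, 0.52 and 0.20 in OLETF 1 to 3, against 2.02, 1.82 and 1.34 in LETO 1 to 3, a difference of −1.15 ± 0.25 (SE, limma adjusted p = 0.0725). The strains were apart, but the spread within each was wide beside the gap between OLETF 1 and LETO 3.

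Among the other members of the group, Mgst3, a microsomal enzyme, had 5.49, 5.55 and 5.30 in OLETF 1 to 3, against 5.45, 5.51 and 5.56 in LETO 1 to 3. Its strains overlapped throughout, with a difference of −0.06 ± 0.10. Gstt1, a theta class gene, differed by 0.32 ± 0.20 (SE, limma adjusted p = 0.648). It had −3.08, −3.10 and −3.14 in OLETF 1 to 3, against −2.95, −3.57 and −3.75 in LETO 1 to 3, so that LETO 1 lay above all 3 OLETF rats. Without LETO 1 the difference of Gstt1 was 0.56 and passed (limma adjusted p = 0.032). The remaining members, Gstp1, Gsto1, Gsta4, Gstk1 and Mgst1, lay between −0.18 and 0.26.

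Glutathione is made by glutamate-cysteine ligase, with the subunits encoded by Gclc and Gclm, and by glutathione synthetase, encoded by Gss, and glutathione reductase, encoded by Gsr, returns the oxidised form to use. None of these 4 genes was called, 2 differences were positive and 2 negative, and their median was 0.0094. Gss had −1.50, −1.56 and −1.47 in OLETF 1 to 3, against −1.83, −1.88 and −1.74 in LETO 1 to 3. All OLETF values were above the LETO values, and the difference of 0.30 ± 0.08 did not pass (SE, limma adjusted p = 0.155). Gsr had −2.99, −2.85 and −2.91 in OLETF 1 to 3, against −2.62, −2.44 and −2.53 in LETO 1 to 3. All OLETF values were below the LETO values, and the difference of −0.39 ± 0.09 did not pass (SE, limma adjusted p = 0.0889). The 2 genes thus had opposite signs with no overlap between strains. Gclc had 0.39, −0.05 and 0.00 in OLETF 1 to 3, against 0.79, −0.03 and −0.08 in LETO 1 to 3, where the rat numbered 1 was the highest of each strain. Gclm differed by 0.13 ± 0.13.

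A list of glutathione turnover, cysteine supply and export had 20 of 22 genes tested, 6 with positive and 14 with negative differences, a median of −0.10, and 1 gene called. Ggt5, a gamma-glutamyltransferase that cleaves glutathione conjugates outside the cell, had −4.11, −4.54 and −4.42 in OLETF 1 to 3, against −3.31, −3.60 and −3.66 in LETO 1 to 3. It was 1.78-fold lower in OLETF, a difference of −0.83 ± 0.15 (SE, limma adjusted p = 0.0362). Its call was lost when any single array other than OLETF 1 was left out, and with slide as a block the value was −0.58 (limma adjusted p = 0.416). A list of NADPH supply, which drives glutathione and thioredoxin reductases, had 12 of 14 genes tested and none called, with a median of 0.033. The lowest p there belonged to Me3, a mitochondrial malic enzyme, at −0.25 ± 0.09, and Idh2, the mitochondrial isocitrate dehydrogenase, at 0.25 ± 0.11 (SE, limma adjusted p of 0.268 and 0.442).

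In the thioredoxin and glutaredoxin group 6 genes were tested, none was called, 2 had positive and 4 negative differences, and the median was −0.078. Srxn1, which encodes sulfiredoxin, the enzyme that repairs overoxidised peroxiredoxins, had 0.64, 0.53 and 0.46 in OLETF 1 to 3, against 0.98, 0.86 and 0.95 in LETO 1 to 3. The strains were apart, and the difference of −0.39 ± 0.09 did not pass (SE, limma adjusted p = 0.0898). It passed with eBayes trend and robust (limma adjusted p = 0.0446) and with normexp background correction (limma adjusted p = 0.0449). Txn1, the cytosolic thioredoxin, had 4.36, 4.24 and 4.15 in OLETF 1 to 3, against 4.12, 4.35 and 4.23 in LETO 1 to 3. Those ranges overlap almost entirely, and the difference was 0.02 ± 0.10. Txn2, the mitochondrial thioredoxin, had 1.61, 0.98 and 1.25 in OLETF 1 to 3, against 1.11, 1.66 and 1.77 in LETO 1 to 3, with a wide spread in both strains. Glrx2, the mitochondrial glutaredoxin, differed by 0.17 ± 0.08 without overlap between strains (SE, limma adjusted p = 0.506). Glrx1, the probe that stands for Glrx, differed by 0.22 ± 0.11 with an overlap (SE, limma adjusted p = 0.484). The thioredoxin reductases Txnrd1 and Txnrd2 differed by −0.14 ± 0.13 and −0.02 ± 0.08. The Txnrd1 probe used here has 60 bases but is placed over only 34 bases of rn4, whereas the second is placed over 60. The second probe of Txnrd1 gave −0.35 ± 0.11 with the strains apart (SE, limma adjusted p over all probes tested = 0.205), and its 2 probes thus differed in size but not in sign.

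Peroxide removal was the most numerous group with 10 genes, none of which was called, 6 with positive and 4 with negative differences and a median of 0.043. Gpx4, the peroxidase of lipid hydroperoxides, had 6.48, 6.69 and 6.41 in OLETF 1 to 3, against 6.41, 6.55 and 6.53 in LETO 1 to 3. The strains overlapped, the difference was 0.03 ± 0.10, and the second Gpx4 probe gave −0.01 ± 0.09. Cat, which encodes catalase, had 0.44, 0.35 and 0.27 in OLETF 1 to 3, against 0.77, 0.53 and 0.59 in LETO 1 to 3. Its strains did not overlap, and the difference of −0.28 ± 0.10 did not pass (SE, limma adjusted p = 0.289). Prdx2, a cytosolic peroxiredoxin, had 5.36, 5.42 and 5.33 in OLETF 1 to 3, against 5.30, 5.25 and 5.24 in LETO 1 to 3. The strains were apart by a small margin, and the difference was 0.11 ± 0.08 (SE, limma adjusted p = 0.729). Gpx3, the secreted plasma form, had 1.44, 1.39 and 1.28 in OLETF 1 to 3, against 2.26, 1.52 and 1.23 in LETO 1 to 3, where LETO 1 stood above all other rats. Gpx1, Prdx1, Prdx3, Prdx4, Prdx5 and Prdx6 lay between −0.19 and 0.11.

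A list of other peroxidases and thiol repair genes had 23 of 29 tested, with 15 positive and 8 negative differences, a median of 0.089 and 1 call. Msra, the methionine sulfoxide reductase that repairs oxidised methionine in proteins, had −1.28, −1.32 and −1.24 in OLETF 1 to 3, against −2.07, −2.29 and −2.18 in LETO 1 to 3. It was 1.87-fold higher in OLETF, a difference of 0.90 ± 0.09 (SE, limma adjusted p = 0.00412), and the call held without each array in turn. With slide as a block the value was also 0.90, with a limma adjusted p of 0.084.

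The 3 superoxide dismutase genes were not called, with a median of 0.041. Sod1, the copper and zinc enzyme of the cytosol, had 6.03, 6.11 and 6.0 in OLETF 1 to 3, against 5.81, 6.10 and 6.11 in LETO 1 to 3, and differed by 0.04 ± 0.11. LETO 1 was the lowest of the 6 rats and the others overlapped. Sod2, the mitochondrial manganese enzyme, differed by −0.03 ± 0.11, and Sod3, the extracellular enzyme, by 0.30 ± 0.12 (SE, limma adjusted p = 0.395). The lowest OLETF value of Sod3, 3.64 in OLETF 1, lay below the highest LETO value, 3.67 in LETO 1.

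The genes of NRF2 control and its first-line targets were not called either, and all 4 differences were negative, with a median of −0.022. Nfe2l2, which encodes NRF2, had 2.01, 1.68 and 1.76 in OLETF 1 to 3, against 1.89, 1.84 and 1.80 in LETO 1 to 3, where the LETO rats lay within the range of the OLETF rats. Its difference was −0.03 ± 0.11 and that of Keap1, which encodes its inhibitor, −0.0043 ± 0.09. Nqo1, a quinone reductase, differed by −0.23 ± 0.12 (SE, limma adjusted p = 0.540). Hmox1, the inducible heme oxygenase, had −1.16, −1.39 and −0.97 in OLETF 1 to 3, against −0.53, −1.67 and −1.28 in LETO 1 to 3, so that the OLETF rats lay inside the range of the LETO rats. Its interval ran from −0.67 to 0.64 and covers differences past 1.5-fold either way. A list of other NRF2 regulators and targets had 26 of 29 genes tested and 3 called, all higher, with 13 positive and 13 negative differences and a median of 0.0011. The aldo-keto reductase genes Akr1b10 and Akr1b8 were higher by 4.49 ± 0.10 and 1.72 ± 0.19, and the aldehyde oxidase gene Aox1 by 1.01 ± 0.17 (SE, limma adjusted p = 0.0302 for Aox1). The Aox1 call was lost without LETO 2, OLETF 1, OLETF 2 or OLETF 3, and with slide as a block neither Akr1b8 (adjusted p = 0.104) nor Aox1 (adjusted p = 0.314) passed.

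Rats of the same strain differed most in Hmox1, Gclc and Gpx3, with SDs within strains, pooled over both, of 0.44, 0.39 and 0.38. The median pooled SD was 0.126 over the members and 0.146 over all genes. In OLETF and LETO apart, the SDs were 0.21 and 0.58 for Hmox1, 0.24 and 0.49 for Gclc and 0.08 and 0.53 for Gpx3. The lowest pooled SD among the members was 0.037, that of Txnrd2, a mitochondrial thioredoxin reductase. Hmox1 was printed in 10 spots on each array, whose SD lay between 0.031 and 0.041, far below the spread of 0.44 between rats. The same held for Gpx1, with 0.045 to 0.060 between spots and 0.20 between rats. For Gsr the spots had an SD of 0.050 to 0.093 and the rats one of 0.078. Each rat had its own array, so the spread between rats includes that between arrays. LETO 1 held the highest of the 6 values for 14 of 37 members (37.8%, beside 23.9% of all genes), among them Hmox1, Gclc, Gpx3, Gstm1 and Gstm2. It held the lowest value for 8 members (21.6%, beside 28.7% of all genes). OLETF 1 held the highest value for 9 members (24.3%, beside 11.9% of all genes).

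**Figure D5:**
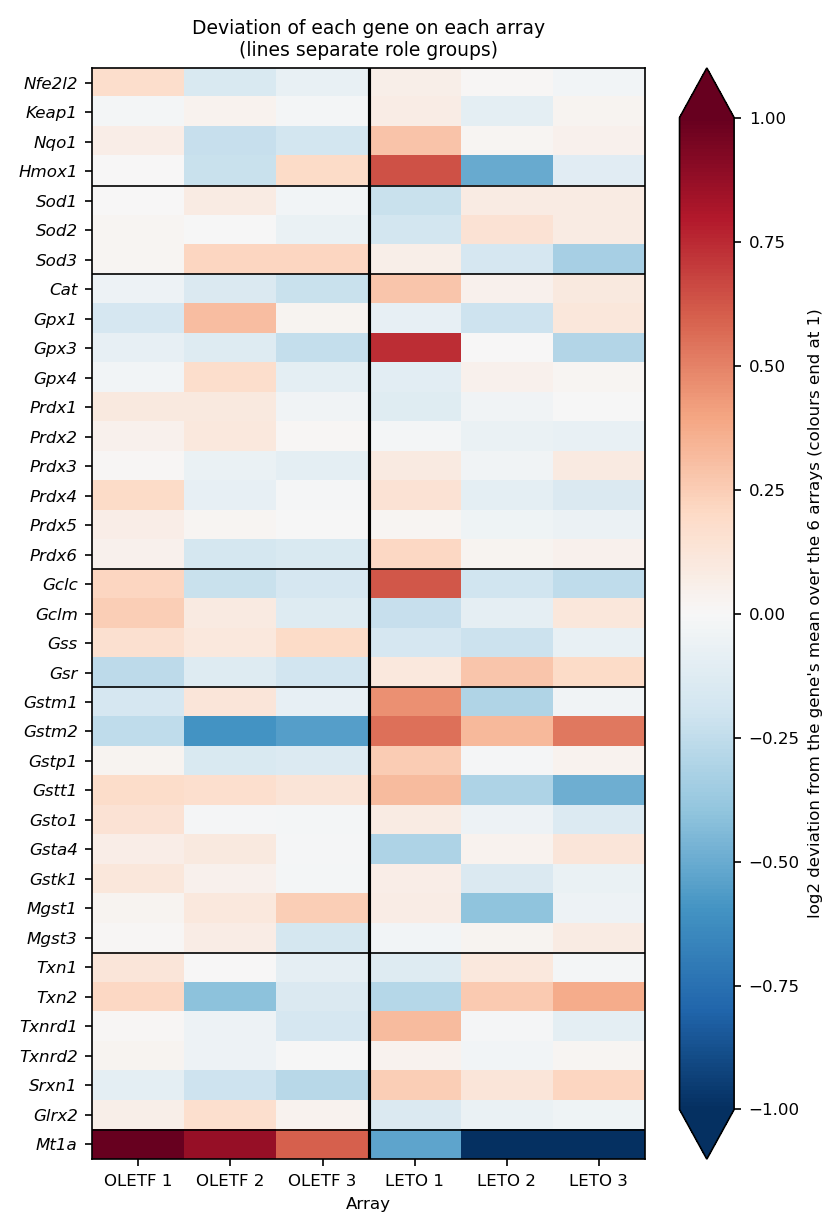
Deviation of each of the 37 members on each array from its mean over the 6 arrays, on the log2 scale, with OLETF arrays left, LETO arrays right and lines between role groups. Mt1a is red in all 3 OLETF columns and Gstm2 blue in all 3, and the LETO 1 column holds the highest value of 14 genes.

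Markers of blood and immune cells also moved between the strains. Of 8 macrophage markers tested 1 was called, Folr2, higher in OLETF by 1.94 ± 0.11 (SE, limma adjusted p = 0.000314), and the summed signal of the list was 16.8 to 21.0 times the 75th percentile in OLETF and 11.9 to 19.5 times in LETO, with Cd68 and Adgre1 not tested. Of 5 lymphocyte markers 2 were called, Cd3g and Nkg7, both lower, and the sum was 1.66 to 1.81 times in OLETF and 2.41 to 2.97 times in LETO, with Cd3e and Cd79b among those not tested. Among the red blood cell markers Slc4a1 was called higher, and the sum of the list was 10.2 to 11.7 times in OLETF and 9.17 to 29.9 times in LETO. Among the markers of atrial muscle, endothelium, fibroblasts, smooth muscle, neutrophils and adipocytes none was called. The atrial markers Myl7 and Sln varied widely between rats of the same strain. Myl7 ran from −0.72 to 3.85 in OLETF and from 0.54 to 5.15 in LETO. Sln ran from −4.05 to 1.25 in OLETF and from −4.04 to 1.68 in LETO, whereas Myl4 varied little (SD within strains 0.068). The part of these cells in the Mt1a and Gstm2 results was not tested.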

How the data were processed

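Left ventricular RNA of 6 rats, 3 per strain, was hybridised to 1-colour arrays. The scans were extracted with Feature Extraction 10.7.3.1 per the file headers, and version 9.1 stands in the submitters' processing notes. The deposited scanner files hold linear intensity, with the background already subtracted in the processed signal, per the file headers. In the deposited table of values the same intensity was divided by a constant per array (column medians 0.154 to 0.163), without a log or centring per gene, and 1-colour values carry no ratio direction. Groups and replicate numbers follow the labels. The source name of LETO 2 reads replicate 1.

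From these files the processed signal was log2 transformed, control spots and 260 to 356 outlier spots on each array were dropped, leaving 17 probes without values, spots of a probe were averaged, and the 75th percentile of each array was subtracted. A probe was tested if at least 50% of its spots were well above background in every rat of 1 strain or both (21484 of 30367 probes), and a gene name took the values of its tested probe of highest mean. Strains were compared by limma 3.58.1 under R 4.3.3 (lmFit and eBayes, Benjamini-Hochberg over 18816 genes, adjusted p below 0.05). The fit was also run on simulated data with no slide effect and equal array quality, which cannot speak to those limits of the design. Tables and figures were made with version 1.17.8 of data.table, Python 3.11.15, pandas 2.3.3, numpy 2.4.6 and matplotlib 3.10.9. Probe positions are those of rn4 in the files. Promoter windows are RefSeq sequences of GRCr8, and the builds were not mixed. The number of arrays limits the precision.

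Values on every array are given for called members, members with an adjusted p below 0.2, the member with the highest mean signal in each role group and the 3 most variable members, and others were chosen after their values were seen. Of each wider list every called gene is named, or the 2 with the lowest p. Items of the cell marker lists are not all reported here. The members and lists were chosen with earlier results of these data known. Alternatives were quantile and median scaling, normexp with an offset of 50, the value table, no filter or one that needs all 6 arrays, averaging a gene's probes, eBayes with trend and robust, array weights, a stricter adjusted p of 0.01, slide, age or replicate block terms and each array left out. The 75th percentile over spots was added after seeing the data.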

Additional observations from a re-analysis of the deposited data

How the results depend on the processing

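Over 21 alternatives the 37 members gave 777 values, of which 763 stayed on their side of the threshold, 6 lost a call, 8 gained one, and no called value changed sign. Among differences that were not called, 51 values of 16 members changed sign, all of members with a difference of at most 0.23 in size. Mt1a lay between 1.59 and 1.94 and kept its call in 20 alternatives, all but the first slide alone (adjusted p from 0.000713 to 0.127). Gstm2 lay between −1.04 and −0.72, kept its call in 16 and lost it in 5 (adjusted p from 0.00204 to 0.393), namely an adjusted p below 0.01, slide as a block, the first slide alone, and without OLETF 2 or OLETF 3.
The count of members higher, 1 in the report, was 4 with array weights and 0 on the first slide alone, and 1 to 2 with each array left out. The count of members lower, 1 in the report, was 2 with normexp, 2 with eBayes trend and robust and 3 with array weights. It was 0 with an adjusted p below 0.01, 0 with slide as a block and 0 on the first slide alone, and 0 to 1 with each array left out. The genes gained with array weights, which give LETO 1 little weight, were Sod3, Gss, Gstt1, Gsr and Srxn1, and among the other named genes Mt2A, Mt3, Gsta3, Gstm6, Glrx1 and Me3. The median of the members stayed within 1 SD of the report's value in all 21 alternatives.
Over all genes, 283 were higher and 197 lower. These counts were 149 and 91 with no filter on dim probes, 857 and 801 with array weights, 121 and 79 with an adjusted p below 0.01, 52 and 51 with slide as a block, and 9 and 18 on the first slide alone. Leaving out each array gave 128 to 375 higher and 87 to 239 lower. The second slide held OLETF rats only, so the slide block rests on OLETF 1 against the LETO rats of its slide.
The rats share only a replicate number across strains (correlations of same-numbered deviations −0.09, −0.14 and −0.01). The replicate block gave 166 genes higher, kept both member calls (Mt1a 1.70, Gstm2 −0.93), called Mt2A (adjusted p = 0.0289) and Gsta3 (−1.15, adjusted p = 0.0155), and lost Aox1 (adjusted p = 0.0631).
With 3 rats per strain no single value was tested as an outlier.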
